A study of Mus musculus with 18 samples.

Results

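miR-21a is the mouse miR-21, a microRNA (miRNA) made from the Mir21a hairpin. Its members here are the mature arms mmu-miR-21a-5p and mmu-miR-21a-3p, chosen by name. They are 2 of the 1739 known miRNA arms that had at least 1 read in the 16 small RNA libraries used, and after summing the arms of each precursor name they form 1 of 1066 precursors. The libraries were made from sperm of ICR mice, an outbred strain. In the generation labelled F0, males of the exposed group were given ammonia (NH3) and hydrogen sulfide (H2S) over 5 weeks, starting when they were 3 weeks old. They were later bred to untreated females. F1 males, bred at 8 weeks of age, and F2 males received no treatment. The labels name 6 groups, F0 Con, F0 NHS, F1 Con, F1 NHS, F2 Con and F2 NHS, with 3 libraries each. Con marks controls and NHS is the label of the exposed line. The labels do not spell out NHS and do not say how the controls were housed. The lists of F1 NHS replicates 1 and 3 end before the known miRNAs, so F1 NHS is represented by replicate 2 alone and 16 of the 18 libraries were used. Of these 16, the lists of F1 NHS 2, F2 NHS 2 and F2 NHS 3 are also partial, holding 42.3%, 35.7% and 40.3% of their reads, but they reach the end of the known miRNAs. Nothing in the labels says that replicates came from separate animals, so each p-value reflects only how far these libraries differ, and that spread may be technical.

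A miRNA hairpin is cut by Drosha and Dicer into a duplex of a 5p and a 3p arm. An Argonaute protein keeps one arm as the guide and finds messenger RNAs mainly through the seed, the bases near the guide's 5′ end. miR-21 is one of the most studied stress-responsive miRNAs: its transcription is raised by NF-kappa-B, STAT3 and AP-1 signals, TGF-beta signalling speeds its processing, and known targets include Pdcd4 and sprouty genes. In most tissues the 5p arm is the abundant guide and the 3p arm, once called miR-21*, is the minor product.

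The mature sequences recorded under the names of the arms show how the close relatives of the 5p arm differ from it. The reads themselves were not compared with them. The seed, bases 2 to 8, is in capitals. Sequences are from RefSeq on the assembly GRCm38.p6, in which 1472 of the 1739 listed miRNAs were matched by name.
mmu-miR-21a-5p: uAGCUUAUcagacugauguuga
mmu-miR-21a-3p: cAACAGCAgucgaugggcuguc
mmu-miR-21c: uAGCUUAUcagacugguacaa
mmu-miR-21b: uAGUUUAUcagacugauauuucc
The 5p arm lies at chr11:86584120-86584141 and the 3p arm at chr11:86584082-86584103, both on the minus strand. The 92-base hairpin (chr11:86584067-86584158) lies, in the GENCODE M21 annotation, inside an exonic untranslated region (chr11:86583865-86585310) of the protein-coding gene Vmp1 on the same strand. miR-21c (chr8:128278188-128278208, minus strand) was the other mature miRNA in the RefSeq table with the seed of miR-21a-5p. Counted from 1 at the 5′ end, it differs from miR-21a-5p at 5 of 21 compared positions: A16G, G18A, U19C, U20A and G21A. miR-21b (chr3:29636768-29636790, plus strand) has another seed through C4U and also carries G18A, G21U and A22C, so 4 of 22 positions differ. No other entry of that table had the seed of the 3p arm; listed miRNAs without an entry were not checked. miR-21c held 2 reads in all, in 2 libraries, and miR-21b 4 reads in 2 libraries, against 8781 to 484538 reads per library for miR-21a-5p. The miR-21 signal of these libraries therefore stood under the names of the miR-21a arms.

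The libraries used held 18072900 to 29430555 reads each, of which known miRNAs took 13.3% to 57.4%. In 6 libraries (F0 Con 2, F0 NHS 3, F1 NHS 2, F2 Con 1, F2 Con 2 and F2 NHS 1) a predicted hairpin with the sequence of a tRNA-Ala stood at 2378 to 18720 reads per 1000000, against 42.9 to 223 in the other 10. Differences fitted without these 6 libraries are given after the main ones. Germ cell miRNAs were present in all 16 libraries, among them miR-34b-3p and miR-34c-3p, known from meiotic and later male germ cells. Markers of other cells were also present: miR-143, known from smooth muscle, and miR-451a, known from red blood cells, were the precursors with the highest means. In such bulk samples, fewer cells of a type and less RNA per cell cannot be told apart.

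miR-21a was an abundant miRNA in all 16 libraries. Levels are given as deposited TPM, which in these files is the read count per 1000000 reads of the library with no term for length. Both arms together averaged 9282 TPM, the sixth highest mean of all precursors, where miR-143 averaged 42939, miR-451a 26787 and miR-191 19538 TPM. Its rank within a library ran from 2 to 24 with a median of 11.5. It took 1.13% to 6.88% of the known miRNA reads, with a median of 1.91%. Over the libraries the sum varied 12.4-fold, from 2108 to 26228 TPM.

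The arms varied far more than their sum. miR-21a-5p ran from 373 to 25860 TPM, a 69.3-fold range, and miR-21a-3p from 88.4 to 22188 TPM, a 251-fold range. The guide known from other tissues, 5p, held the majority in 12 libraries, and the 3p arm held it in 4.

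In F0 Con, the sums of both arms were 14139, 5184 and 26228 TPM in replicates 1, 2 and 3. In F0 NHS they were 7309, 6167 and 10922 TPM. Every F0 NHS value lay between the lowest and the highest F0 Con value, so the groups overlapped. The 5p arm stood at 3146, 4972 and 25860 TPM in F0 Con and at 5387, 5248 and 8555 TPM in F0 NHS. The 3p arm stood at 10992, 212 and 368 TPM in F0 Con and at 1922, 919 and 2367 TPM in F0 NHS. One F0 Con library was thus very high in 3p and another in 5p, while the F0 NHS libraries were close to each other in both arms.

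In F1 Con, the sums were 2108, 2858 and 3675 TPM, the 3 lowest of the 16 libraries. The single F1 NHS library had 8955 TPM, above all of them. The 5p arm stood at 2020, 373 and 473 TPM in F1 Con and at 8734 TPM in F1 NHS. The 3p arm stood at 88.4, 2485 and 3202 TPM in F1 Con and at 221 TPM in F1 NHS, inside the control range. The F1 Con libraries had similar sums from opposite arms: replicate 1 was nearly all 5p, and replicates 2 and 3 were mostly 3p.

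In F2 Con, the sums were 4503, 4584 and 11003 TPM. Those of F2 NHS were 12447, 22811 and 5611 TPM. The groups overlapped through F2 Con replicate 3 and F2 NHS replicate 3. The 5p arm stood at 3292, 3772 and 10050 TPM in F2 Con and at 12143, 624 and 3446 TPM in F2 NHS. The 3p arm stood at 1211, 811 and 953 TPM in F2 Con and at 304, 22188 and 2165 TPM in F2 NHS. In F2 NHS replicate 2 the 3p arm was the most abundant miRNA arm of the library, a position it had in no other library.

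**Figure D1:**
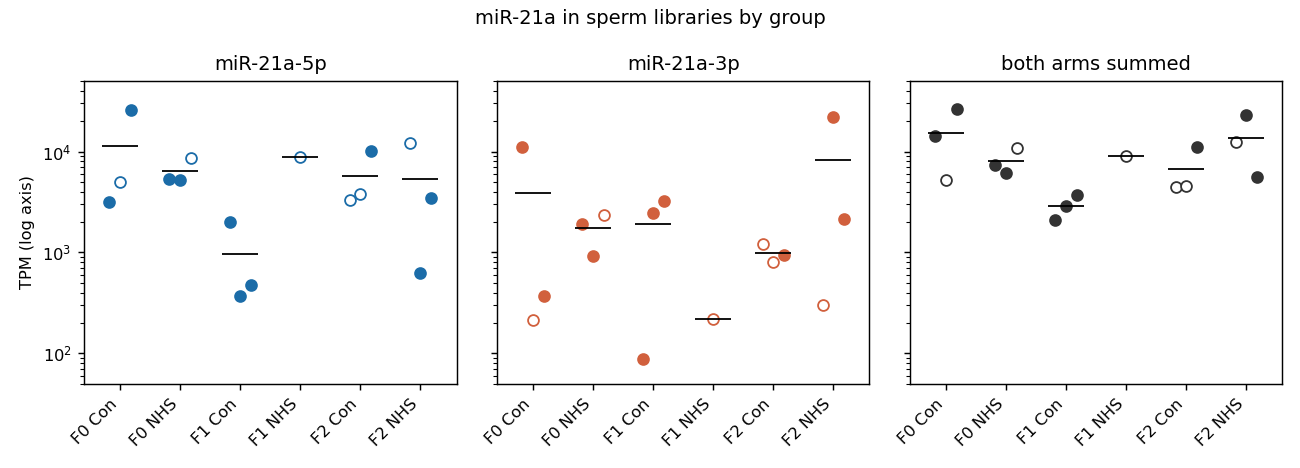
TPM (log axis) of miR-21a-5p, miR-21a-3p and both arms summed in the 16 libraries by group; a point is a library, open where the tRNA-Ala hairpin was high, and a line is the group mean. The arms spread over 69.3-fold and 251-fold, their sum over 12.4-fold, and the 3 F1 Con sums are the lowest.

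By mean sum, the groups stood in the order F1 Con (2881 ± 784 TPM, SD, n = 3), F2 Con (6697 ± 3730, n = 3), F0 NHS (8133 ± 2482, n = 3), F1 NHS (8955, 1 library), F2 NHS (13623 ± 8660, n = 3) and F0 Con (15184 ± 10561, n = 3). Among neighbours in this order, only F1 Con and F2 Con did not overlap. For the 5p arm the means were 955 ± 923 in F1 Con, 5404 ± 6004 in F2 NHS, 5705 ± 3771 in F2 Con, 6397 ± 1870 in F0 NHS, 8734 in F1 NHS and 11326 ± 12620 TPM in F0 Con. For the 3p arm they were 221 in F1 NHS, 992 ± 203 in F2 Con, 1736 ± 741 in F0 NHS, 1925 ± 1631 in F1 Con, 3858 ± 6179 in F0 Con and 8219 ± 12133 TPM in F2 NHS. The SD exceeded or came close to the mean of an arm wherever 1 library of the group had the other arm in the majority.

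The comparison of exposed and control lines in each generation asks whether sperm of exposed males or of their descendants held more or less miR-21a. miR-21a did not pass the test in any generation, for either arm or their sum. Differences are log2 fold changes from edgeR's quasi-likelihood test, fitted across all known miRNAs (735 arms or 506 summed precursors past the low-count filter), with Benjamini-Hochberg adjusted p-values and a threshold of 0.05. In these contrasts between NHS and Con, 0% of the arms and 0% of the precursors were called. The counts at an unadjusted p under 0.05 were 45, 44 and 80 arms and 41, 47 and 71 precursors in F0, F1 and F2. DESeq2 called 1, 7 and 28 arms and 3, 3 and 34 precursors, and miR-21a was not among them.

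For the sum of both arms the fitted difference of NHS from Con was -0.84 in F0 (SE 0.57, 95% interval -2.07 to 0.39, adjusted p = 0.636 by edgeR). In F1 it was 1.19 (SE 0.76, interval -0.44 to 2.82, adjusted p = 0.651 by edgeR), where the lone NHS library is assumed to vary like the other groups. In F2 it was 0.75 (SE 0.57, interval -0.48 to 1.97, adjusted p = 0.576 by edgeR). The intervals therefore include both no difference and changes of more than 1 log2 unit. The mean over the generations was 0.36 (SE 0.37, adjusted p = 0.779 by edgeR). The F2 difference minus the F0 difference was 1.59 (SE 0.81, adjusted p = 0.339 by edgeR), so the opposite signs of F0 and F2 were not shown to differ. Without F2 NHS replicate 2 the F2 difference was 0.28, and without F0 Con replicate 3 the F0 difference was -0.47.

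For the single arms the errors were larger still. The 5p difference of NHS from Con was -0.71 (SE 1.05, adjusted p = 0.889) in F0, 2.38 (SE 1.35, adjusted p = 0.745) in F1 and -0.14 (SE 1.05, adjusted p = 0.956) in F2, all by edgeR. The 3p difference was -1.17 (SE 1.45, adjusted p = 0.877) in F0, -3.53 (SE 2.55, adjusted p = 0.745) in F1 and 2.79 (SE 1.53, adjusted p = 0.525) in F2, all by edgeR. The F0 signs of both arms, the F2 sign of 5p and the F2 size of 3p rested on single libraries. Without F0 Con replicate 1, the library of 10992 TPM of 3p, the F0 difference of 3p turned to 2.42. Without F0 Con replicate 3, the library of 25860 TPM of 5p, the F0 difference of 5p turned to 0.17. Without F2 NHS replicate 2, the F2 difference of 3p was 0.17 and that of 5p turned to 0.59. The small F2 difference of 5p also turned to 0.60 without F2 Con replicate 3 and to 0.11 without F2 NHS replicate 3.

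**Figure D2:**
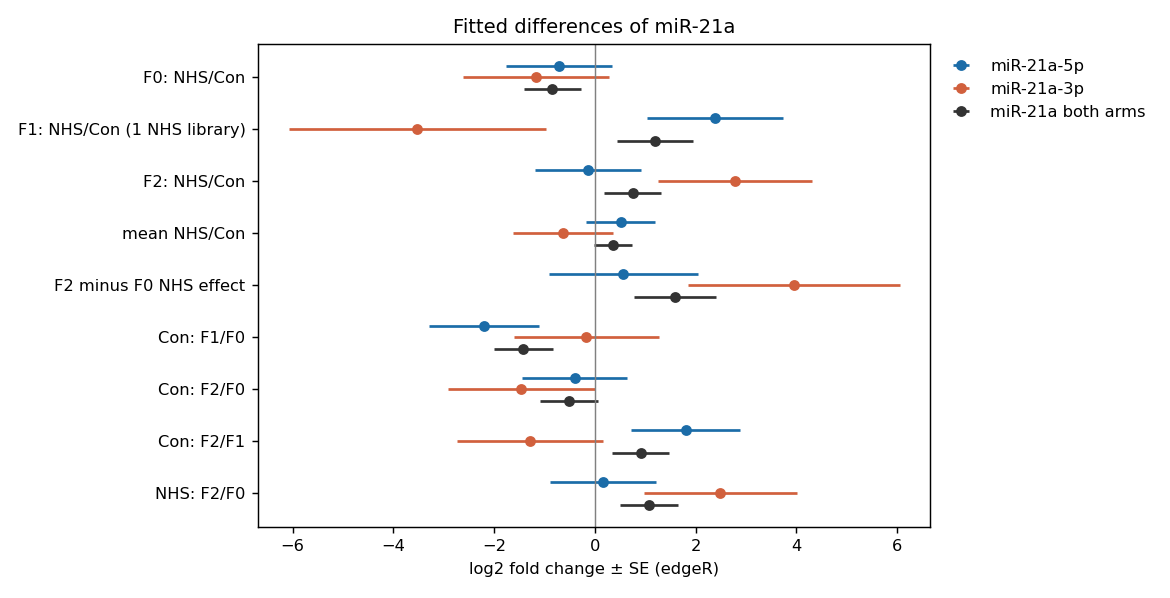
Log2 fold change from edgeR with its SE (x axis) for miR-21a-5p, miR-21a-3p and both arms summed in the 9 contrasts (y axis). No value passed the adjusted threshold of 0.05; the 3p arm has the widest errors, up to an SE of 2.55 in F1.

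The groups were also compared within the sets of libraries that stand apart by their tRNA-Ala reads. In F0, among the libraries rich in these reads, the NHS library had 10922 TPM of summed miR-21a and the Con library 5184. Among the other F0 libraries, NHS had 7309 and 6167 TPM and Con 14139 and 26228. NHS was thus higher in one set and lower in the other. In F2, the rich NHS library had 12447 TPM against 4503 and 4584 in the rich Con libraries, and among the others NHS had 22811 and 5611 TPM against 11003 in Con. With a term for the set the fitted differences of the sum were -0.75, 1.60 and 0.70 in F0, F1 and F2. Without the 6 rich libraries they were -1.29 in F0 and 0.25 in F2, and none passed the test. The 5p difference without them was -1.07 in F0 and -2.62 in F2 (adjusted p = 0.490 by edgeR), against -0.14 with all libraries in F2. The 3p difference was -1.92 in F0 and 3.42 in F2, and neither passed the test. In F1 the NHS library is rich and all 3 Con libraries are not, so line and set cannot be told apart there by the libraries alone.

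Generations were compared within the control line, and between F2 and F0 in the exposed line. Summed miR-21a was lower in every F1 Con library than in every F0 Con library, yet the fitted difference did not pass the test: -1.42 (SE 0.58, adjusted p = 0.131 by edgeR). Of the 506 precursors, 5.14% were called in this contrast (2.17% higher and 2.96% lower in F1 Con), and 33% had all F1 Con values below all F0 Con values. Non-overlap in this direction was therefore frequent among all miRNAs. The number called, 26, fell to 0 without F0 Con replicate 2 or F1 Con replicate 3 and was 40 without F0 NHS replicate 3, so this background itself rested on single libraries. Known miRNAs took 49.9% ± 8.56 of the reads in F0 Con and 21.1% ± 10.2 in F1 Con (SD, n = 3 each). As a percentage of the known miRNA reads, miR-21a stood at 2.73, 1.28 and 4.57 in F0 Con and at 1.58, 1.66 and 1.13 in F1 Con, and on that scale the groups overlapped. Scaling by library totals in place of TMM moved the median of all precursors from -0.02 to -0.86 in this contrast, and miR-21a from -1.42 to -2.40, with an adjusted p = 0.0346 by edgeR. Without the 6 tRNA-rich libraries the difference was -1.75 (adjusted p = 0.147 by edgeR). Scaling by library totals was the one setting of all those run under which a value of miR-21a passed the threshold.

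From F1 Con to F2 Con, every F2 library had more summed miR-21a than every F1 library, with a fitted difference of 0.90 (SE 0.57, adjusted p = 0.594 by edgeR), which was 1.40 without the tRNA-rich libraries (adjusted p = 0.624 by edgeR). No precursor was called (0%), and 12.5% of the precursors did not overlap in this direction. F2 Con and F0 Con overlapped, with a difference of -0.52 (SE 0.57, adjusted p = 0.605 by edgeR) where 3.75% of the precursors were called (1.58% higher and 2.17% lower in F2 Con). Between F2 NHS and F0 NHS the difference was 1.08 (SE 0.57, adjusted p = 0.472 by edgeR), with 0% called. Both contrasts against F0 Con share its libraries with the F0 comparison of NHS with Con, so their values are not independent of each other.

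By arm, miR-21a-5p was lower in every F1 Con library than in every F0 Con library (-2.20, SE 1.09, adjusted p = 0.303 by edgeR), which 25.6% of the 735 arms also were. It was higher in every F2 Con than in every F1 Con library (1.80, SE 1.08, adjusted p = 0.643 by edgeR), as 10.1% of the arms were. From F0 Con to F2 Con it differed by -0.40 (SE 1.05, adjusted p = 0.881 by edgeR), and from F0 NHS to F2 NHS by 0.16 (SE 1.05, adjusted p = 0.965 by edgeR), which was -0.24 with library totals. Without the tRNA-rich libraries these values were 0.32 and -1.23. Of the arms, 0.136% were called between F2 Con and F0 Con and 0% in the other contrasts. The 3p arm overlapped between all pairs of groups compared. Its differences were -0.17 (SE 1.43) from F0 Con to F1 Con, -1.46 (SE 1.46) from F0 Con to F2 Con, -1.29 (SE 1.45) from F1 Con to F2 Con and 2.49 (SE 1.51) from F0 NHS to F2 NHS, none of which passed the test (adjusted p = 0.955, 0.621, 0.826 and 0.659 by edgeR). Without F0 Con replicate 1 both contrasts of 3p against F0 Con turned, to 3.50 for F1 Con and 2.31 for F2 Con. Without F2 NHS replicate 1 the 5p difference between F2 NHS and F0 NHS turned to -1.45, and without F0 Con replicate 3 that between F2 Con and F0 Con turned to 0.63.

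The lone F1 NHS library was high in miR-21a, and in many other miRNAs. Its sum of both arms lay above all 3 F1 Con values, which 43.3% of the precursors also did, and its 5p level likewise, as 40.3% of the arms did. Its known miRNAs took 38.3% of the reads. The log2 ratio of the sum, F1 NHS to the F1 Con mean, was 1.64 in TPM and 0.68 as a share of the known miRNA reads.

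The split between the arms differed from library to library more than between groups. In F0 Con, 5p held 22.3%, 95.9% and 98.6% of the miR-21a reads in replicates 1, 2 and 3. In F0 NHS it held 73.7%, 85.1% and 78.3%. In F1 Con it held 95.8%, 13.1% and 12.9%, and in F1 NHS 97.5%. In F2 Con it held 73.1%, 82.3% and 91.3%. The F2 NHS libraries had 97.6%, 2.73% and 61.4%. The 4 libraries with 3p in the majority, F0 Con 1, F1 Con 2, F1 Con 3 and F2 NHS 2, came from 3 groups and both lines. Counting error was far smaller than these gaps: the 95% Wilson interval for F2 NHS replicate 2, the lowest, was 2.69% to 2.78%, and for F0 Con replicate 3, the highest, 98.56% to 98.63%. Such intervals cover counting error only, since reads are not independent molecules. None of the 6 libraries rich in tRNA-Ala reads had a 3p majority: their 5p shares ran from 73.1% to 97.6%, and those of the other 10 from 2.73% to 98.6%.

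**Figure D3:**
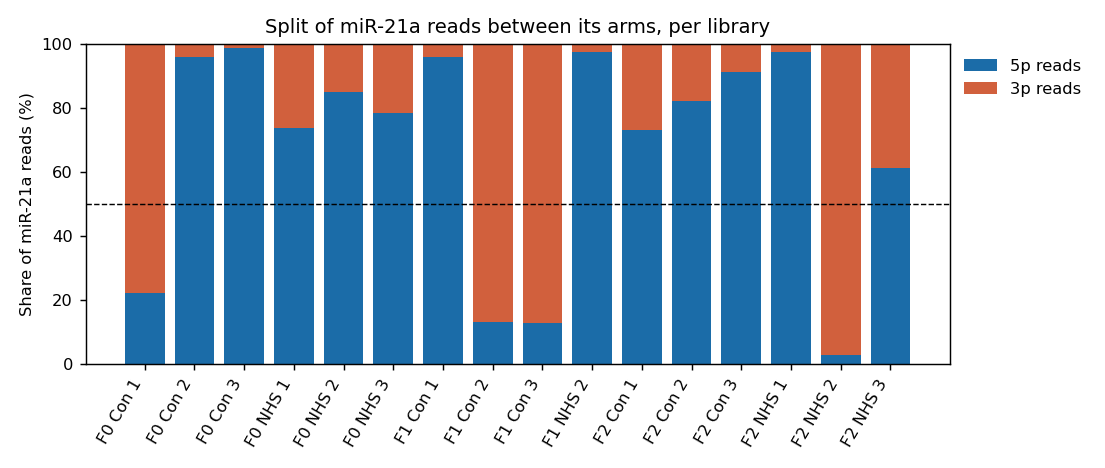
Share of miR-21a reads (%, y axis) assigned to the 5p arm (blue) and the 3p arm (orange) in each of the 16 libraries; the dashed line marks equal shares. In 4 libraries of 3 groups the 3p arm holds the majority, down to a 5p share of 2.73% in F2 NHS 2.

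The mean 5p share was 72.3% ± 43.3 in F0 Con and 79.0% ± 5.73 in F0 NHS (SD, n = 3 each), a difference of 6.79 points (two-sided exact permutation p = 1). In F1 it was 40.6% ± 47.8 in Con (n = 3) and 97.5% in NHS (1 library), a difference of 56.95 points (exact permutation p = 0.25, the smallest that 1 against 3 libraries allows). In F2 it was 82.2% ± 9.12 in Con and 53.9% ± 47.9 in NHS, a difference of -28.3 points (n = 3 each, exact permutation p = 0.5, where 0.1 is the smallest possible). Pooled over generations with labels permuted within each, NHS was 11.8 points higher (exact permutation p = 0.714). Benjamini-Hochberg adjustment over these 4 tests gave 1, 0.9525, 0.9525 and 0.9525. Without F0 Con replicate 1 the F0 difference was -18.2 points, so its sign rested on that library. Without the 6 tRNA-rich libraries the differences were 19.0 points in F0 and -59.3 points in F2 (exact permutation p = 1 and 0.667). Without F2 NHS replicate 2 or another F2 library in turn, the F2 difference lay between -50.2 and -2.76 points.

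Other precursors with both arms varied in the same way. Among 121 precursors with a mean of at least 100 TPM and reads in all 16 libraries, the range of the 5p share had a median of 67.3 points. miR-21a, with 95.9 points, had the third widest range, after miR-30b with 97.0 and miR-449a with 96.0 points. The range exceeded 90 points in 21 precursors and stayed under 10 points in 33. In 76 of the 121 (62.8%), some libraries had 5p and others 3p in the majority, as for miR-21a. Within a library, 19.0% to 28.1% of the 121 had the arm in the majority that was the minor one by their median share. The 4 libraries with 3p-majority miR-21a stood at 21.5%, 28.1%, 19.8% and 25.6% on this count, inside the range of the others. With miR-21a itself left out they stood at 20.8%, 27.5%, 19.2% and 25.0%, where the other libraries ran from 19.2% to 28.3%. A changed majority was thus common to many precursors and all libraries, and the libraries in which miR-21a changed were not apart in how many others did. The table leaned to 3p, however. Every precursor that kept the same majority in all 16 libraries kept 3p, and none had a 5p majority in more than 12. Per library, 5p took 15.0% to 39.1% of the reads of the 121 precursors. The cause of this lean was not tested.

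**Figure D4:**
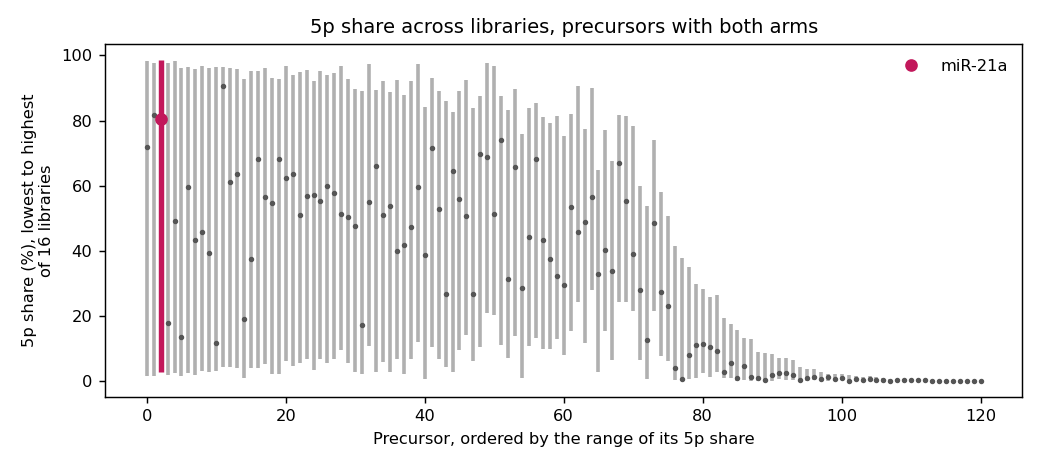
Lowest to highest 5p share (%, bars) and median (points) over 16 libraries for 121 precursors with both arms, ordered by range on the x axis, with miR-21a in red. The bar of miR-21a spans 95.9 points, rank 3 of 121, and 76 precursors cross from one majority to the other.

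miRNAs known to respond to the same kinds of signal as miR-21 were read beside it. No member of these lists passed the test between NHS and Con. In F0, of 11 tested members of an inflammation list (miR-146, miR-155, miR-181, miR-125, miR-132 and others), 8 had a positive difference of NHS from Con, with a median of 0.37, and none passed the test. Over all 735 arms the median was 0.10, and 53.1% were positive. In F1 4 of 11 were positive, with a median of -0.21 against -0.29 over all arms. In F2 4 of 11 were positive, with a median of -0.97 against 0.15 over all arms. The list thus stood at its lowest median in F2. There summed miR-21a differed by 0.75, or by 0.28 without F2 NHS replicate 2. miR-21a-5p, a single arm like the list members, differed by -0.14.

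The most abundant members of that list varied widely within groups. Members of these lists are single arms, so their values mix the level of a precursor with its split between arms. The 5p share of miR-146a ran from 2.28% to 96.5% over the libraries, and that of miR-223 from 0.16% to 2.06%. miR-181a-5p, which tunes T cell receptor signalling, averaged 879 ± 1314 TPM in F0 Con and 1869 ± 1941 in F0 NHS, then 2740 ± 2872 in F2 Con and 456 ± 576 among the F2 NHS libraries. miR-125b-5p averaged 652 ± 961 and 781 ± 573 TPM in the F0 groups, and 2261 ± 1047 and 1014 ± 1207 in the F2 groups. miR-146a-5p, a feedback inhibitor of NF-kappa-B signalling through Traf6 and Irak1, averaged 683 ± 445 and 668 ± 743 TPM in F0 and 1093 ± 728 and 360 ± 396 in F2 (Con first, n = 3 each).

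For hypoxia and damage stress, 3 of 11 members were positive in F0 (median -0.28), 6 of 11 in F1 (0.32) and 5 of 11 in F2 (-0.08), and none passed the test. miR-26a-5p averaged 14555 ± 10186 TPM in F0 Con, 14330 ± 11319 in F0 NHS, 680 ± 129 in F2 Con and 13658 ± 9808 among the F2 NHS libraries. Its F2 difference was 4.13 (SE 1.38, adjusted p = 0.294 by edgeR). miR-23a-3p averaged 7318 ± 2038 and 5636 ± 1512 TPM in F0 and 3519 ± 2532 and 3529 ± 1126 in F2. miR-27a-3p, from the same cluster, averaged 3593 ± 291 and 2972 ± 185 TPM in F0 and 885 ± 164 and 1257 ± 185 in F2. For TGF-beta and fibrosis, 5 of 9 tested members were positive in F0 (median 0.23), 4 of 9 in F1 (-0.15) and 6 of 9 in F2 (0.78), and none passed. Its most abundant members were miR-199a-3p, miR-29a-3p, which represses collagen genes, and miR-214-3p. Their F2 differences were -0.13, -0.03 and 0.40, with SEs of 1.10, 0.61 and 0.61.

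Between F0 Con and F1 Con, where summed miR-21a was lower, 10 of 11 hypoxia and damage members and 7 of 9 TGF-beta members had negative differences, with medians of -1.13 and -0.92 against 0.07 over all arms. The inflammation list had 7 of 11 negative (median -0.57). None of these passed the test.

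miR-21 is made by many cell types, so markers of the cells a sperm sample can hold were read beside it. All members of the marker lists had reads in all 16 libraries, so no defining marker was at 0. Leukocyte markers (miR-142a-3p and -5p, miR-223-3p, miR-150-5p and miR-155-5p) summed to 250 to 1861 TPM in F0 Con, 402 to 777 in F0 NHS, 408 to 493 in F1 Con, 469 in F1 NHS, 195 to 2323 in F2 Con and 945 to 2158 in F2 NHS. The libraries with the highest miR-21a, F0 Con 3 and F2 NHS 2, had 1861 and 2158 TPM of these markers, against a median of 635 over the 16. The same libraries had 28752 and 20837 TPM of the epithelial markers given below, against a median of 15103. In red blood cell, stromal, endothelial and germ cell markers, F0 Con 3 was above the median of the 16 and F2 NHS 2 below it. F2 NHS 2 had 9007, 23065, 1487 and 17898.5 TPM of them, against medians of 18499, 35230, 1600 and 22521. The highest leukocyte sum, 2323 TPM, was in F2 Con 3, which had 11003 TPM of miR-21a, the highest of its group. Other F2 libraries did not follow this order: F2 NHS 3 had 1735 TPM of the markers and 5611 of miR-21a, and F2 NHS 1 had 945 of the markers and 12447 of miR-21a. In F2, 4 of 5 leukocyte markers had positive differences of NHS from Con (median 0.41), and none passed the test.

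Epithelial markers (miR-200a, miR-200b, miR-200c, miR-141, miR-429 and miR-205) summed to 20287 to 28752 TPM in F0 Con, 11990 to 25663 in F0 NHS, 4618 to 19877 in F1 Con, 13611 in F1 NHS, 6048 to 9153 in F2 Con and 14942 to 20837 in F2 NHS. In F2 all 6 had positive differences (median 1.18, against 0.15 over all arms), and none passed the test. The most abundant of them, miR-200c-3p, averaged 2620 ± 352 TPM in F2 Con and 9276 ± 3107 in F2 NHS (1.60, SE 0.53, adjusted p = 0.288 by edgeR). Red blood cell markers summed to 10152 to 77367 TPM in F0 Con, 19993 to 35855 in F0 NHS, 15594 to 34280 in F1 Con, 59017 in F1 NHS, 4330 to 11542 in F2 Con and 9007 to 24330 in F2 NHS. In F2 all 5 red blood cell markers also had positive differences (median 1.43), and none passed the test. The F1 NHS sum was nearly all miR-451a, at 58904 TPM. The other 4 red blood cell markers were lower in F1 NHS than the F1 Con mean: miR-144-3p stood at 25.2 against 80.5 TPM, miR-144-5p at 0.79 against 6.69, miR-486a-5p at 81.7 against 233 and miR-486b-5p at 5.18 against 163. In the fit of F1, 1 of the 5 had a positive and 4 a negative difference (median -2.30), and none passed the test.

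Smooth muscle and stroma markers summed to 70257 to 170157 TPM in F0 Con, 53701 to 124182 in F0 NHS, 8829 to 16901 in F1 Con, 32132 in F1 NHS, 12564 to 35351 in F2 Con and 23065 to 36492 in F2 NHS. Endothelial markers (miR-126a) summed to 1817 to 4124 TPM in F0 Con, 477 to 6651 in F0 NHS, 162 to 1853 in F1 Con, 1377 in F1 NHS, 1191 to 2429 in F2 Con and 967 to 2707 in F2 NHS. Germ cell markers summed to 6307 to 25460 TPM in F0 Con, 24794 to 48256 in F0 NHS, 15104 to 35189 in F1 Con, 19433 in F1 NHS, 24456 to 41078 in F2 Con and 16142 to 18139 in F2 NHS. In F2, 2 of 8 germ cell, 4 of 5 stromal and 1 of 2 endothelial markers had positive differences of NHS from Con. Their medians were -0.36, 0.40 and 0.61. In F0, 5 of 8 germ cell, 2 of 5 stromal and 0 of 2 endothelial markers were positive (medians 0.75, -0.43 and -1.38). Positive in F0 were also 2 of 5 leukocyte, 2 of 5 red blood cell and 1 of 6 epithelial markers. The medians of these lists were -0.30, -0.91 and -0.54, and no marker passed the test in F0 or F2. From F0 Con to F1 Con, where summed miR-21a had -1.42, stromal markers had 4 of 5 negative differences (median -2.51). Endothelial markers had 2 of 2 negative (median -2.04) and epithelial markers 4 of 6 (median -0.62). Germ cell markers had 8 of 8 positive differences (median 2.30), red blood cell markers 4 of 5 (median 1.36) and leukocyte markers 3 of 5 (median 1.17). The median over all arms was 0.07, and none of these markers passed the test. With library totals in place of TMM that median was -0.88, so the signs above are those on the TMM scale. In TPM, the mean of miR-191-5p fell from 10702 in F0 Con to 7011 in F1 Con, and that of miR-880-3p from 96.6 to 64.3. The TPM means of the other germ cell markers rose. Pearson's r of log2 sums with summed miR-21a over the 16 libraries was 0.67 for epithelial and 0.64 for leukocyte markers. It was 0.50 for endothelial, 0.42 for stromal, 0.35 for red blood cell and 0.003 for germ cell markers. Summed miR-21a also had Pearson's r = 0.70 with the percentage of a library's reads in known miRNAs. The marker sums were not scaled for that percentage. The part of these other cells in the miR-21a values was not tested.

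The miRNAs whose pattern over the 16 libraries was most like that of miR-21a were found by Pearson's r of log2(TPM + 1), as a description of these libraries, which also share their depth and the share of miRNA reads. For the sum of both arms, 311 precursors were compared, with a median r of 0.36. The nearest was miR-223, known from neutrophils and monocytes, with r = 0.84 (Spearman's rho 0.86). miR-146b, a relative of the NF-kappa-B regulated miR-146a, followed with r = 0.82, then miR-200c, an epithelial miRNA, with 0.80, miR-322 with 0.78 and miR-28a with 0.77. Without the pair of libraries farthest from its own median, miR-223 had r = 0.77, miR-146b 0.72, miR-200c 0.70, miR-322 0.69 and miR-28a 0.76. As a share of the known miRNA reads, which takes out the differing miRNA content of the libraries, r was 0.71, 0.61, 0.57, 0.51 and 0.42.

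miR-223 stood at 519, 98.7 and 1297 TPM in F0 Con and at 221, 283 and 308 in F0 NHS. It stood at 115, 139 and 191 TPM in F1 Con and 213 in F1 NHS. It stood at 203, 102 and 372 TPM in F2 Con and 229, 492 and 280 in F2 NHS. As for miR-21a, F0 Con 3 was the highest library, F0 Con 2 the lowest of its group, and F2 Con 3 and F2 NHS 2 the highest of theirs. Within the 10 libraries poor in tRNA-Ala reads r was 0.94, and within the 6 rich ones 0.74. The fitted differences of miR-223 from Con to NHS were -1.11 (SE 0.61) in F0, 0.07 (SE 0.85) in F1 and 0.26 (SE 0.60) in F2, none past the test (adjusted p = 0.636, 0.971 and 0.882 by edgeR).

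**Figure D5:**
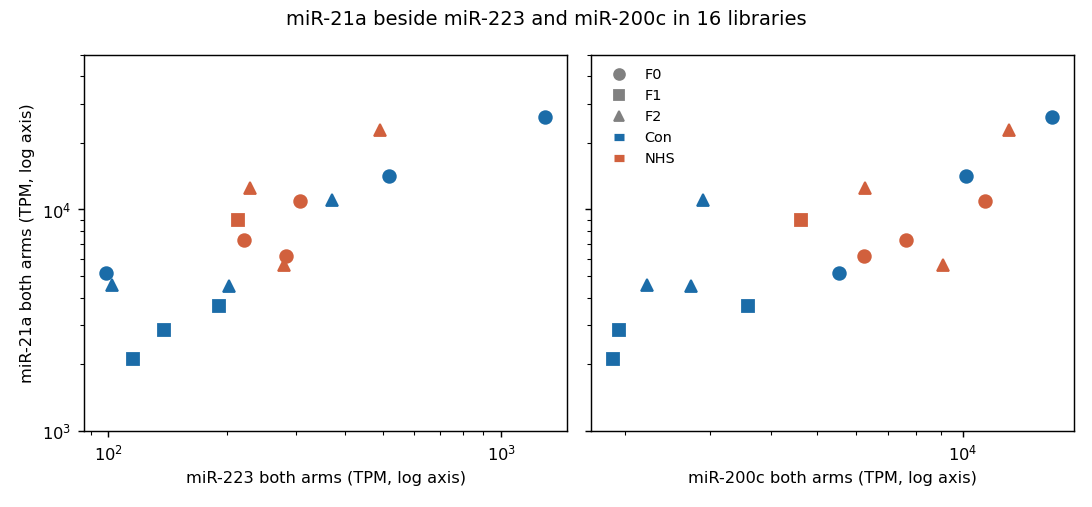
TPM of both arms of miR-21a (y, log axis) against miR-223 (left) and miR-200c (right, x, log axes) in the 16 libraries, with shape for the generation and colour for the line. Pearson's r on log2 values is 0.84 for miR-223 and 0.80 for miR-200c; F0 Con 3 is highest on all 3.

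For the single arms the likeness was weaker, and different miRNAs came first. With miR-21a-5p, 419 arms were compared with a median r of 0.16, and the nearest were miR-423-3p (0.70), let-7b-3p (0.68), miR-181a-5p (0.68), let-7e-5p (0.67) and miR-410-3p (0.65). Within the 6 libraries rich in tRNA-Ala reads, r was 0.21, 0.80, -0.10, 0.08 and 0.04, so 4 of the 5 likenesses lay mainly in the other 10 libraries. With miR-21a-3p, the nearest were miR-466d-3p (0.68), miR-16-1-3p (0.67), miR-196b-5p (0.65), miR-425-3p (0.62) and miR-184-3p (0.60), with a median r of 0.15. Without the pair of farthest libraries, which held F2 NHS 2 for the first 4 of these, r fell to between 0.39 and 0.56. None of the 5 arms nearest to miR-21a-5p was among the 5 nearest to miR-21a-3p.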

How the data were processed

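Small RNA was sequenced from mouse sperm. The deposited table gives, per library, the read count of each small RNA and its TPM, per the file headers. In every entry the deposited TPM equals, within 0.011 TPM plus 0.1% of the value, the count per 1000000 reads of the library, with no length term. Reads were placed on mm10, per the submitters' processing notes; the aligner, the rules for assigning arms and the treatment of reads with several matches do not appear in the sources used. Of the 18 lists, 13 are full and 5 partial. Totals of partial lists were themselves derived from count divided by TPM; of these, F1 NHS 2, F2 NHS 2 and F2 NHS 3, all of the exposed line, were used. F1 NHS replicates 1 and 3 were not used.

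Counts of all known miRNAs in 16 libraries were fitted with edgeR 4.0.16 in R 4.3.3 (library totals as sizes, TMM factors, at least 1 CPM in at least 3 libraries, group means in 1 fit), by arm and with the arms of each precursor summed. Benjamini-Hochberg adjustment ran over all miRNAs tested, threshold 0.05, and the procedure was tested on simulated data. There 200 of 735 arms were changed by 3 log2 units between F2 NHS and F2 Con. With the spread of these data 42% of them were recovered, and with a smaller spread (dispersion 0.1) 98.5%. The 5p share was compared by two-sided exact permutation tests (scipy 1.17.1). Correlations used log2(TPM + 1) of miRNAs with a mean of at least 10 TPM. DESeq2 1.42.0, library totals, other filters, a replicate block, a term for the tRNA-Ala sets and leaving out libraries were alternatives; leaving out the 6 tRNA-rich libraries was added after seeing the data. Named miRNAs are both arms, miRNAs sharing a seed or near copies, the 3 most abundant members of each list, the 5 nearest by r, and the 3 most abundant precursors; members called would have been added. miR-21a, the lists and the tests were chosen with earlier results of these data known.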

Additional observations from a re-analysis of the deposited data

How the results depend on the processing

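Of 705 tests of miR-21a over all settings, 1 passed the threshold: both arms between F1 Con and F0 Con with library totals (-2.40, adjusted p = 0.0346 by edgeR). Signs turned in few others. The 5p value of F2 minus F0 was -0.085 with the replicate block and -1.55 without the 6 tRNA-rich libraries; 5p between F2 Con and F0 Con was 0.32 without them; 5p between F2 NHS and F0 NHS was -0.24 with library totals, -0.44 with the replicate block and -1.23 without the rich libraries; 3p between F1 Con and F0 Con was 0.061 with the replicate block; 3p between F2 Con and F1 Con was 0.11 with the set term. The cause was not tested. The F1 log2 ratio of both arms was 0.68 per miRNA reads. Deviations of same-numbered libraries had r of -0.22 to 0.21 (median 0.0009, over 30 pairs). Those of differently numbered libraries had r of -0.25 to 0.30 (median 0.006, over 60 pairs). Above 0.1 were 7 of the 30 same-numbered and 6 of the 60 other pairs. Of 15 libraries, 7 correlated best with their own number. These values do not settle whether same-numbered libraries are paired. The replicate block moved counts of called precursors to 10 (F1 Con against F0 Con) and 8 (F2 Con against F0 Con). For the 5p share the block changes only the relabellings (exact permutation p = 1, 0.5, 0.5 and 0.711 for 6.79, 56.95, -28.3 and 11.8 points). In F1 the block leaves 1 pair of libraries to swap, so 0.5 is the smallest exact permutation p possible there.

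Leaving out each library in turn gave, for 5p, -1.22 to 0.17 (F0), -1.75 to 0.60 (F2), -0.025 to 1.04 (the mean), -1.05 to 1.51 (F2 minus F0), -1.05 to 0.63 (F2 Con against F0 Con), -1.45 to 1.001 (F2 NHS against F0 NHS). Leaving out each library in turn gave, for 3p, -1.75 to 2.42 (F0), -1.46 to 0.52 (the mean), -0.72 to 3.50 (F1 Con against F0 Con), -2.01 to 2.31 (F2 Con against F0 Con), -0.033 to 3.06 (F2 NHS against F0 NHS). For the 5p share it gave -18.2 to 20.0 points in F0, 43.1 to 84.6 in F1, -50.2 to -2.76 in F2 and 3.47 to 21.005 pooled. Counts of called arms were 0 to 1 (F1 Con against F0 Con), 0 to 3 (F2 Con against F0 Con), 0 to 1 (F2 Con against F1 Con). Counts of called precursors were 0 to 4 (F2), 0 to 1 (the mean), 0 to 12 (F2 minus F0), 0 to 40 (F1 Con against F0 Con), 1 to 28 (F2 Con against F0 Con), 0 to 1 (F2 Con against F1 Con), 0 to 1 (F2 NHS against F0 NHS).

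The number of miRNAs called depended on the tool and setting. With DESeq2 arms called were 1 (F0), 7 (F1), 28 (F2), 12 (the mean), 32 (F2 minus F0), 58 (F1 Con against F0 Con), 87 (F2 Con against F0 Con), 17 (F2 Con against F1 Con), 3 (F2 NHS against F0 NHS) and precursors called were 3 (F0), 3 (F1), 34 (F2), 9 (the mean), 45 (F2 minus F0), 104 (F1 Con against F0 Con), 100 (F2 Con against F0 Con), 16 (F2 Con against F1 Con), 14 (F2 NHS against F0 NHS). With no filter arms called were 3 (F2), 5 (F2 minus F0), 4 (F1 Con against F0 Con), 14 (F2 Con against F0 Con), 8 (F2 Con against F1 Con), 1 (F2 NHS against F0 NHS) and precursors called were 3 (F2 minus F0), 3 (F1 Con against F0 Con), 7 (F2 Con against F0 Con), 1 (F2 NHS against F0 NHS). With library totals arms called were 19 (F1 Con against F0 Con), 2 (F2 Con against F0 Con) and precursors called were 4 (the mean), 68 (F1 Con against F0 Con), 42 (F2 Con against F0 Con). With the set term arms called were 1 (F0), 1 (F1), 1 (the mean), 2 (F2 Con against F0 Con), 1 (F2 Con against F1 Con) and precursors called were 1 (F0), 1 (F1), 1 (the mean), 1 (F2 minus F0), 15 (F1 Con against F0 Con), 35 (F2 Con against F0 Con), 1 (F2 Con against F1 Con). With the compared groups alone arms called were 0 (F2 Con against F0 Con) and precursors called were 1 (F1 Con against F0 Con). Without the rich libraries, arms called were 0 (F2 Con against F0 Con) and precursors called were 6 (F1 Con against F0 Con), 1 (F2 Con against F0 Con), 1 (F2 Con against F1 Con). The F1 and mean contrasts have no value without F1 NHS replicate 2 or without the rich libraries, and the mean contrast uses all groups. Each miR-21a arm held at least 2261 reads in every library; the effect of depth on the calls was not tested.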
